A study of Rattus norvegicus with 35 samples.

Results

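The genes followed here belong to one organelle: they encode the acid hydrolases, membrane proteins and proton pump subunits of the lysosome, together with Cd68, a heavily glycosylated protein of late endosomes and lysosomes. The list held 37 genes, chosen by name for their known place in the lysosome and with earlier results of these data known. Of these, 36 had a probe set that named the gene alone, and all 36 passed the filter for testing, among 14217 genes measured and 10490 tested. Sgsh, an enzyme that degrades heparan sulfate, had no such probe set and is not described. The 36 genes were read by 50 probe sets: 23 genes had 1 and 13 had 2 or 3. Each gene is given by its brightest probe set.

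Primary hepatocytes isolated from rats were kept in culture and exposed through the medium for 72 h. The groups were propiconazole at 10, 30 and 100 uM, myclobutanil at 10, 30 and 100 uM, triadimefon at 10, 30 and 100 uM, phenobarbital at 200 uM, PCN at 30 uM, and the vehicle DMSO at 0.1%. The first 3 compounds are triazole fungicides, which inhibit the fungal sterol demethylase Cyp51. Beyond the triazole they differ in structure: propiconazole holds a dioxolane ring, myclobutanil a nitrile and triadimefon a ketone. Phenobarbital and PCN, inducers of liver drug metabolism through the nuclear receptors CAR and PXR, were the positive controls. RNA of each sample was hybridized to 1 Affymetrix rat expression array, giving 35 arrays in 12 groups. Each array carried 1 of the codes Rs256, Rs293 and Rs304, and what a code stands for is not given in the labels. Every group held 1 array of each code, except PCN, which had no Rs256 array. The labels do not give the strain, sex or age of the rats, and the design calls the arrays of a group biological replicates.

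The lysosome is the acidic compartment in which cells break down proteins, glycans, lipids and worn-out organelles. Its hydrolases are made in the endoplasmic reticulum, sorted through the Golgi by mannose-6-phosphate or by carrier proteins, and work at the low pH kept by a proton pump, the V-ATPase. Many lysosomal genes share an E-box of the letters CACGTG, the core of the CLEAR element to which the transcription factor TFEB and its relatives bind. In liver the lysosome handles lipoproteins, glycogen, lipid droplets and autophagic cargo, and Cd68 is best known as a marker of macrophages such as Kupffer cells.

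Promoter sequences are shown because the genes that rose fell on both sides of this motif. RefSeq windows (build GRCr8) from 250 bases before to 50 after the start of the gene were matched for 28 of the 36 genes and searched for CACGTG, a palindrome that reads the same on both strands. The motif lay in 7 of the 28 windows (25%), against 9.75% of the 8761 tested genes with a window and 6.65% of all 27457 promoters. The longer TCACGTG, on either strand, lay in 6 of 28 (21.4%), against 5.66% of tested genes and 3.43% of all promoters. TCACGTGA, nested in both, lay in 4 of 28 (14.3%), against 1.77% and 0.867%. The 7 genes were Lamp1 with 5 copies, Mcoln1 and Ctsd with 2 each, and Cd63, Glb1, Gaa and Atp6v0d1 with 1 each. A match is a run of letters, not a measured binding site.

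The 100 bases that end just before the start of the gene, 5′ to 3′ on the gene's strand, are printed for 4 genes with the motif and 2 without, and CACGTG is in capitals. They are chr12:6358158-6358257 (plus strand) for Mcoln1, chr1:206968822-206968921 (minus) for Ctsd, chr10:105028255-105028354 (plus) for Gaa, chr16:83075064-83075163 (minus) for Lamp1, chr10:54882442-54882541 (minus) for Cd68 and chr14:15842483-15842582 (plus) for Scarb2.
Mcoln1: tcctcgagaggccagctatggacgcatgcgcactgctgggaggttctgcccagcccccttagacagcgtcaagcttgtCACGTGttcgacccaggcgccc
Ctsd: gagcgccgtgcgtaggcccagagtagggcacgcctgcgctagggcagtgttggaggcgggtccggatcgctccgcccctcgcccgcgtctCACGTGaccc
Gaa: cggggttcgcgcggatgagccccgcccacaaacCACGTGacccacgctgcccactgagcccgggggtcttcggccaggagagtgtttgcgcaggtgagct
Lamp1: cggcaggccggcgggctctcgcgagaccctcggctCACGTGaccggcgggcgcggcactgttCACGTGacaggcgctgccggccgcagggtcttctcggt
Cd68: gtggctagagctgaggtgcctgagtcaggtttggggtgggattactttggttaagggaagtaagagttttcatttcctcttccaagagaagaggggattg
Scarb2: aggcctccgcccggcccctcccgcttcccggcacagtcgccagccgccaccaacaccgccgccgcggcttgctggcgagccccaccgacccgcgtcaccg
In the stretches shown, Lamp1 holds 2 copies and Mcoln1, Ctsd and Gaa hold 1 each.

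Levels are on the log-like scale of the deposited table after quantile normalization, which brings all arrays to one distribution. The base of the log is not stated in the sources used here, so changes are differences in units of that scale and are not converted to folds. Levels of different genes come from different probes and are not set against each other. The median of all probe sets other than controls, with those that name no gene, lay near 0 (-0.01). Of the 36 genes 34 lay above this median of the array on all 35 arrays. Cd68 did so on 32 and Ctss on 34. As deposited, array SDs ran from 0.645 to 0.937. The highest belonged to the propiconazole 30 uM array of Rs293, which also had the highest difference between the 3′ and 5′ probe sets of actin (1.59), against 0.66 to 0.81 on the DMSO arrays. The comparisons with DMSO share its 3 arrays. Changes are tested with limma over all 35 arrays, and a gene is called when its p, adjusted over all 10490 genes within a comparison, lies below 0.05. Where arrays are left out or the processing is changed, counts of called genes are given without the share of all genes. Those counts show how the calls moved and are not a trait of the 36 genes.

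With propiconazole at 100 uM 9 of the 36 genes rose and 1 fell: 3 of 6 membrane proteins with Cd68 and 4 of 10 proteases rose, and of 9 glycosidases and sulfatases 2 rose and 1 fell. Among all genes tested 6.38% rose and 5.59% fell in this comparison. The median change of the 36 genes was 0.18, against 0.01 over all genes, and 26 of the 36 changes were above 0. The genes that rose were Cd68, Scarb2 and Mcoln1 of the membrane, the proteases Lgmn, Tpp1, Ctsd and Ctsl, and the glycosidases Neu1 and Gaa; Man2b1, the lysosomal alpha-mannosidase, fell. With the Rs code as a replicate block 21 rose and 3 fell, in a fit that called 15.7% of all genes as higher and 13.7% as lower (29.3% in all). On the values as deposited, without quantile normalization, only Cd68 and Neu1 passed the test.

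**Figure D1:**
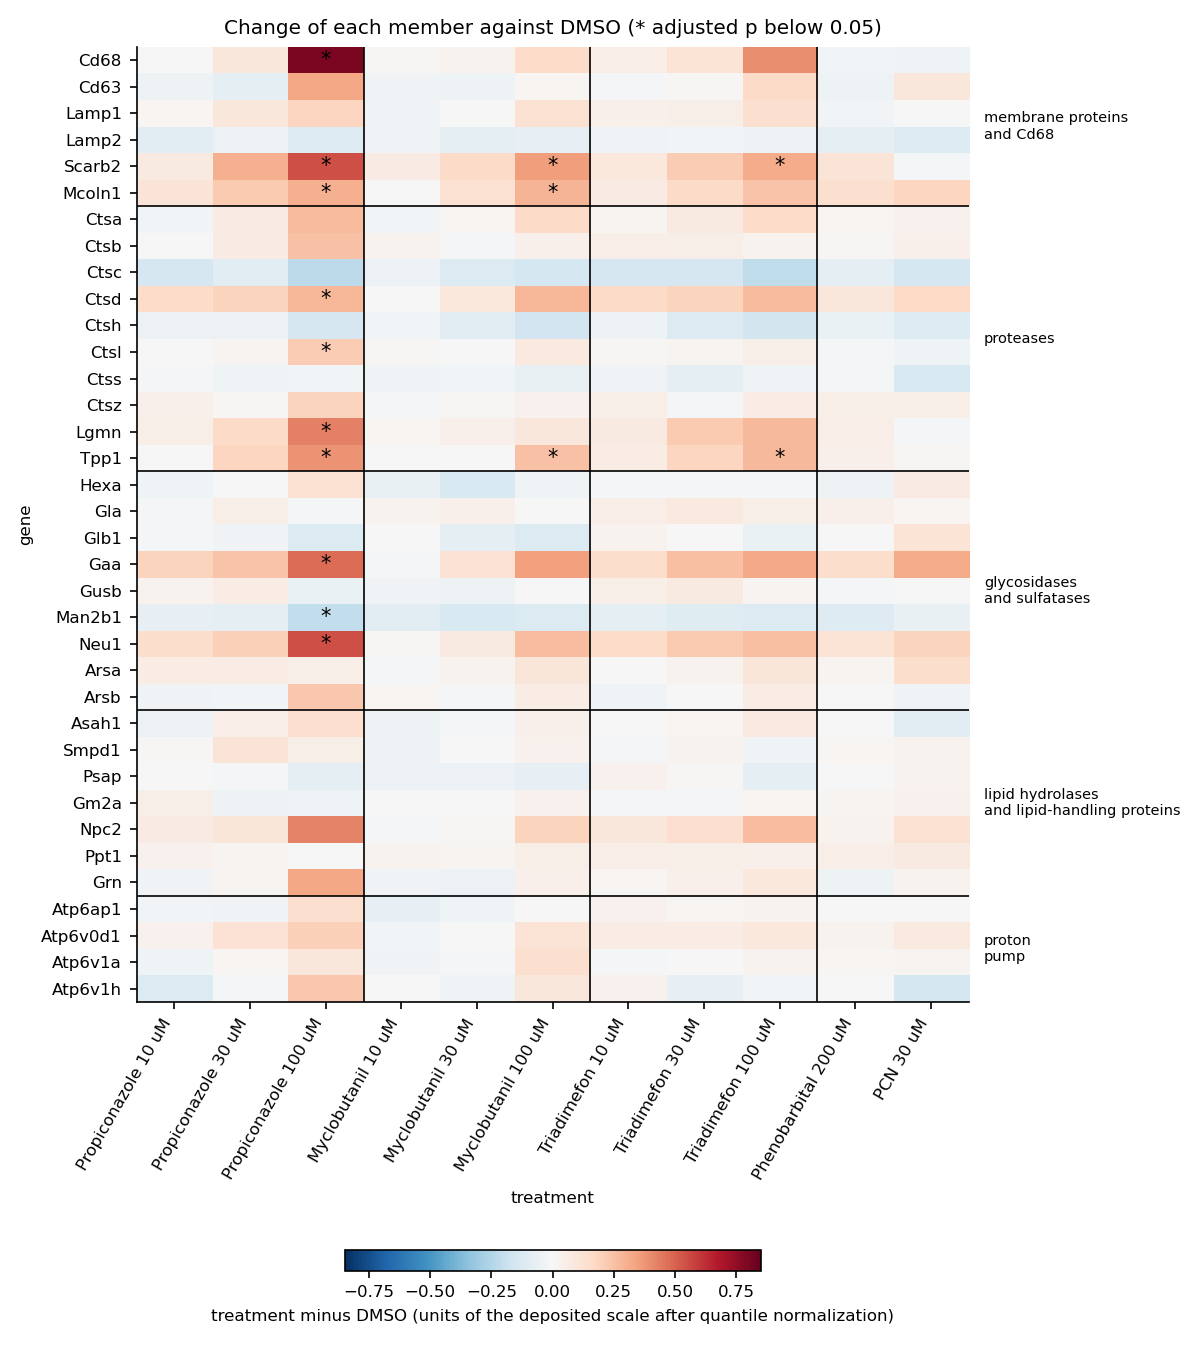
Change of each of the 36 genes (rows, grouped by role) in each treatment minus DMSO (columns), in units of the deposited scale after quantile normalization; red is higher and blue lower than DMSO, and a star marks an adjusted p below 0.05. Stars stand in the 100 uM columns of the triazoles only, 10 for propiconazole, 3 for myclobutanil and 2 for triadimefon.

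Cd68 had the largest change of the 36 genes. Its level was 1.02, 0.73 and 1.17 on the propiconazole 100 uM arrays of Rs256, Rs293 and Rs304, against 0.34, -0.01 and 0.18 on the DMSO arrays of the same codes. The lowest treated array lay above the highest DMSO array, so the groups did not overlap. The change was 0.80 (SE 0.198, adjusted p = 0.00728 by limma), at the 99.7th percentile of all genes, and within codes it was 0.68, 0.73 and 0.99. Without the Rs304 arrays the change was 0.71 and no longer passed the test.

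Scarb2, the receptor that carries beta-glucocerebrosidase to the lysosome, reached 2.03, 2.33 and 2.18 with propiconazole at 100 uM, against 1.72, 1.50 and 1.68 with DMSO (Rs256, Rs293 and Rs304). All treated arrays lay above all DMSO arrays, and the Rs293 array was lowest among the DMSO arrays and highest among the treated ones. The change was 0.55 (SE 0.0760, adjusted p = 2.56e-05). Mcoln1, the calcium-permeable channel TRPML1 of the lysosomal membrane, stood at 1.03, 1.21 and 1.29, against 0.89, 0.79 and 0.95 with DMSO, again without overlap. Its change was 0.30 (SE 0.0668, adjusted p = 0.00324).

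The other membrane proteins did not pass the test without the block. Cd63, a tetraspanin of late endosomes, changed by 0.33 (95% interval -0.05 to 0.70, adjusted p = 0.287). In every group with an Rs256 array that array was the lowest, and with the replicate block the adjusted p was 2.74e-05. Lamp1, a main glycoprotein of the limiting membrane, changed by 0.18 (adjusted p = 0.334, and 0.000737 with the block). A second tested probe set of Lamp1 changed by 0.04 and did not pass with the block (adjusted p = 0.759). Lamp2, a relative of Lamp1 with a role in autophagy, changed by -0.11 (adjusted p = 0.284). Its second probe set changed by 0.21 (adjusted p = 0.119, and 0.0219 with the block), so the probe sets of Lamp2 disagreed in sign. Over the propiconazole doses that second probe set rose by 0.34 per unit of log10 dose (adjusted p = 0.0137 by limma). The brightest one changed by -0.02.

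Among the 10 proteases 4 rose and none fell. Tpp1, which removes tripeptides from protein ends, stood at 1.93, 2.16 and 2.04 on the propiconazole 100 uM arrays of Rs256, Rs293 and Rs304, against 1.65, 1.59 and 1.74 with DMSO. The groups did not overlap, and the change was 0.38 (SE 0.0583, adjusted p = 7.2e-05). Lgmn, the asparaginyl endopeptidase that processes cathepsins, had 1.74, 1.99 and 1.71, against 1.26, 1.54 and 1.35. Its treated arrays all lay above the DMSO arrays, and the change of 0.43 (SE 0.142) was close to the threshold (adjusted p = 0.048). When all probe sets of Lgmn were averaged, including one that failed the filter for testing, the change was 0.19 and was not called.

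Ctsd, the main aspartic protease of the lysosome, had 2.02, 2.02 and 2.07 with propiconazole at 100 uM, against 1.66, 1.78 and 1.83 with DMSO, a change of 0.28 (SE 0.0876, adjusted p = 0.0348). Ctsl, a cysteine endopeptidase, had 3.77, 3.91 and 3.93, against 3.60, 3.61 and 3.75, a change of 0.22 (SE 0.0536, adjusted p = 0.00772). Neither gene overlapped between the groups, although the gap for Ctsl was narrow. A second probe set of Ctsl changed by 0.47 (adjusted p = 0.00523).

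The other 6 proteases spanned both directions. Ctsa, which holds Neu1 and beta-galactosidase in a complex, changed by 0.27 (adjusted p = 0.143), Ctsb by 0.25 (adjusted p = 0.327) and Ctsz by 0.19 (adjusted p = 0.0939); these 3 passed with the replicate block. Ctsc, which activates granule serine proteases, changed by -0.22 (adjusted p = 0.0645, and 0.0301 with the block), but its second probe set changed by 0.02. Ctsh, an aminopeptidase, changed by -0.14, and Ctss, the cathepsin of antigen-presenting cells, by -0.02, and neither passed in either fit.

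The glycosidases and sulfatases split. Neu1, the sialidase that trims sialic acid from glycoproteins, stood at 1.15, 1.28 and 1.41 on the propiconazole 100 uM arrays of Rs256, Rs293 and Rs304, against 0.63, 0.71 and 0.85 with DMSO. The groups were far apart and the difference was nearly the same within each code (0.52, 0.57 and 0.56). The change was 0.55 (SE 0.105, adjusted p = 0.000774), and a second probe set gave 0.47.

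Gaa, the acid alpha-glucosidase that degrades glycogen, had 1.96, 2.13 and 2.04 with propiconazole at 100 uM, against 1.39, 1.59 and 1.72 with DMSO, a change of 0.47 (SE 0.139, adjusted p = 0.0244). Man2b1 had 1.24, 1.25 and 1.15, against 1.44, 1.37 and 1.44, a change of -0.21 (SE 0.0494, adjusted p = 0.00592). Both were free of overlap, Gaa with all treated arrays above DMSO and Man2b1 with all below. Averaged over its probe sets, including one that failed the filter for testing, Man2b1 changed by -0.10 and was still called.

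Of the other 6 genes of this role, Hexa, Gla, Glb1, Gusb, Arsa and Arsb, none passed without the block, and changes ran from -0.11 for Glb1 to 0.23 for Arsb. Glb1, the beta-galactosidase, passed with the block as lower (adjusted p = 0.0105), and Hexa (0.13) and Arsb passed as higher. Their probe sets did not all agree: a second probe set was called for Arsa (0.27), Arsb (0.36) and Gla (-0.22), while the brightest ones gave 0.05, 0.23 and -0.02.

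None of the 7 lipid hydrolases and lipid-handling proteins and none of the 4 proton pump subunits on the list was called at 100 uM propiconazole without the block. Npc2, which hands cholesterol to the membrane protein Npc1, came nearest: 2.43, 2.65 and 2.57, against 1.88, 2.31 and 2.20 with DMSO, without overlap, a change of 0.42 (SE 0.144, adjusted p = 0.0591, and 9.83e-06 with the block). Grn, progranulin, changed by 0.33 (SE 0.199, adjusted p = 0.343, and 0.000129 with the block). In both genes the Rs256 array was the lowest of its group at this dose and with DMSO.

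Asah1, the acid ceramidase, changed by 0.14 (adjusted p = 0.0688) and its second probe set by 0.37 (adjusted p = 0.018). Both probe sets of Asah1 passed with the replicate block. Smpd1, Psap, Gm2a and Ppt1, which act on sphingomyelin, sphingolipid hydrolysis, gangliosides and fatty-acylated proteins, lay between -0.08 and 0.05 and passed in neither fit. The pump subunits Atp6v1h (0.23), Atp6v0d1 (0.20), Atp6ap1 (0.14) and Atp6v1a (0.10) all lay above 0, and the first 2 passed with the block.

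**Figure D2:**
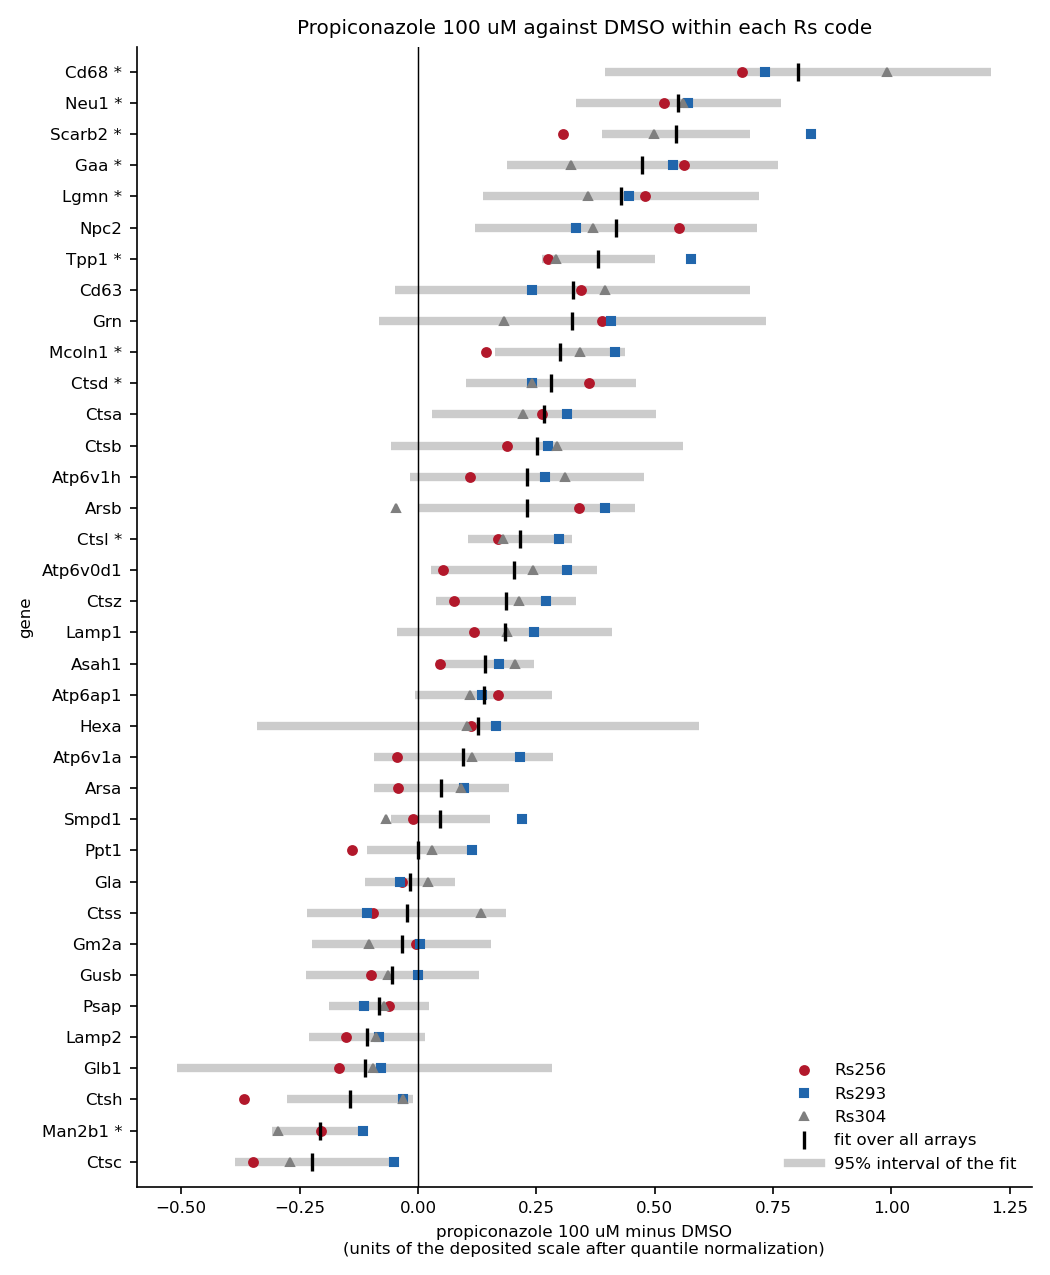
Propiconazole 100 uM minus DMSO for the 36 genes, in units of the deposited scale after quantile normalization: coloured symbols are the difference between the arrays of 1 Rs code, the black tick is the fit over all arrays and the grey bar its 95% interval, and a star marks a call. For Cd68, Neu1 and Scarb2 all 3 symbols lie well right of 0, while Ctsc and Man2b1 have all 3 left of it.

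Within codes the direction was mostly shared. With propiconazole at 100 uM, 21 of the 36 genes were higher than DMSO in every code and 7 were lower in every code, against 26.2% and 22.5% of all genes. Groups that did not overlap showed 12 of 36 genes above DMSO and 4 below (Lamp2, Ctsc, Ctsh and Man2b1), against 14.4% and 12.3% of all genes. The median change of the 36 genes was 0.11 in Rs256, 0.24 in Rs293 and 0.18 in Rs304, so Rs256 had the smallest. Without the Rs304 arrays 3 of the 36 genes were called, and 6 without the propiconazole 100 uM array of Rs304 alone. Without the Rs256 arrays 15 were called. The share of all genes called is not given for these refits, so calls over the whole table may have moved in the same way.

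With rising dose of propiconazole, Cd68 moved mainly between 30 and 100 uM and Scarb2 at each step. Over 10, 30 and 100 uM propiconazole, Cd68 stood at 0.40, 0.50 and 1.02 in Rs256, at -0.07, 0.06 and 0.73 in Rs293 and at 0.20, 0.25 and 1.17 in Rs304. Scarb2 stood at 1.75, 1.90 and 2.03 in Rs256, at 1.66, 1.98 and 2.33 in Rs293 and at 1.72, 1.92 and 2.18 in Rs304. In each code both genes were higher at 30 than at 10 uM and highest at 100 uM.

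The slope on log10 dose over the 3 propiconazole doses, which uses no DMSO array, was called as rising for 6 genes and as falling for none, against 4.96% and 3.72% of all genes. Per unit of log10 dose, Cd68 rose by 0.81 (SE 0.198, adjusted p = 0.0102), Scarb2 by 0.47 (SE 0.0760), Neu1 by 0.41 (SE 0.105) and Tpp1 by 0.38 (SE 0.0583). Asah1 rose by 0.19 (SE 0.0502, adjusted p = 0.015): its levels at 10, 30 and 100 uM were 1.04, 1.07 and 1.05 in Rs256, 0.96, 1.14 and 1.22 in Rs293 and 0.9996, 1.12 and 1.30 in Rs304, so Rs256 stayed flat. Ctsl rose by 0.22 (SE 0.0536), but without quantile normalization its slope was -0.06, and with median centring alone it was -0.05, so the direction for Ctsl turned with the scaling.

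With the replicate block 23 slopes were called, 21 of them rising, in a fit that called 24.8% of all genes. Without the Rs304 arrays, or without the propiconazole 100 uM array of Rs304, 2 slopes were called. There were 3 without the propiconazole 10 uM array of Rs293, 14 without the Rs256 arrays, and 6 without the propiconazole 30 uM array that stood apart. The share of all genes called is not given for these refits.

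**Figure D3:**
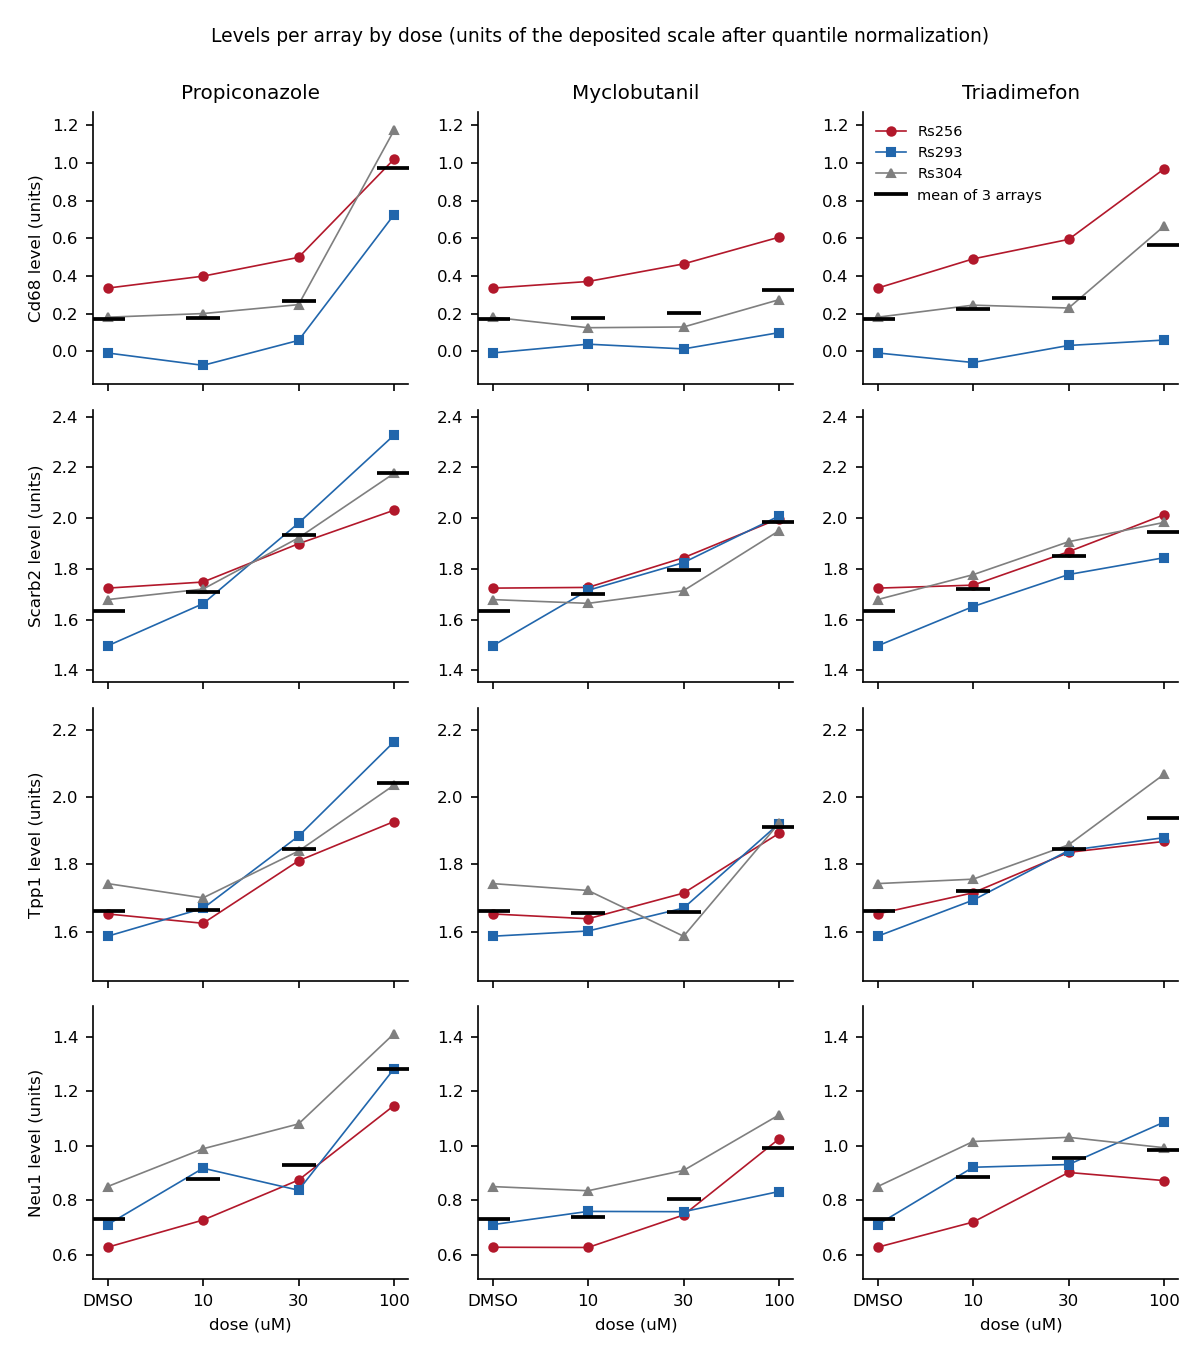
Levels of Cd68, Scarb2, Tpp1 and Neu1 (rows) per array by dose in uM, with DMSO at the low end, for each triazole (columns), in units of the deposited scale after quantile normalization; symbols and lines are Rs codes and black bars the mean of 3 arrays. Cd68 with propiconazole parts from DMSO mainly at 100 uM, where its arrays reach 0.73 to 1.17.

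At the lower doses of propiconazole no gene of the list was called. At 10 uM the changes ran from -0.14 to 0.19, and 0.00953% of all genes were called; none of the 36 had an unadjusted p under 0.05, against 0.953% of all genes. At 30 uM they ran from -0.09 to 0.30, and 0.0381% of all genes were called; 5 of the 36 had an unadjusted p under 0.05, against 6% of all genes. Scarb2 had the largest change there, 0.30 (adjusted p = 0.176), with arrays at 1.90, 1.98 and 1.92, against 1.72, 1.50 and 1.68 with DMSO, and the groups did not overlap; 5.31% of all genes lay wholly above DMSO at this dose. With the replicate block Scarb2 (adjusted p = 0.0253) and Mcoln1 (0.22, adjusted p = 0.0242) passed at 30 uM, in a fit that called 2.62% of all genes.

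Myclobutanil at 100 uM raised 3 of the 36 genes and lowered none, against 0.639% and 0.572% of all genes. They were Scarb2, by 0.35 (SE 0.0760, adjusted p = 0.0229), Mcoln1, by 0.29 (SE 0.0668, adjusted p = 0.0315), and Tpp1, by 0.25 (SE 0.0583, adjusted p = 0.0315). Scarb2 stood at 2.00, 2.01 and 1.95 on the arrays of Rs256, Rs293 and Rs304, against 1.72, 1.50 and 1.68 with DMSO. Mcoln1 had 1.12, 1.15 and 1.23, against 0.89, 0.79 and 0.95, and Tpp1 had 1.89, 1.92 and 1.92, against 1.65, 1.59 and 1.74. None of the 3 overlapped with DMSO. In all 7 of the 36 genes lay wholly above DMSO and 1 wholly below, against 6.97% and 6.07% of all genes.

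Cd68 was not called with myclobutanil at 100 uM: its arrays had 0.61, 0.10 and 0.27, against 0.34, -0.01 and 0.18, a change of 0.16 (95% interval -0.25 to 0.56, adjusted p = 0.887). It was higher than DMSO in each code, but by less than the spread between codes. The median change of the 36 genes was 0.05. None of the 3 calls held on the values as deposited or with only the groups compared in the fit. With the block 9 rose and Glb1 fell, in a fit that called 9.9% of all genes; Lamp1, Ctsa, Ctsd, Gaa, Neu1 and Npc2 joined the 3. No gene was called without the arrays of any 1 code, without the DMSO array of Rs293, or without the myclobutanil 100 uM array of Rs256 or Rs293. The count was 1 without the DMSO array of Rs256 or the myclobutanil array of Rs304.

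Triadimefon at 100 uM raised 2 of the 36 genes and lowered none, against 0.867% and 0.963% of all genes. Scarb2 had 2.01, 1.84 and 1.98 on the arrays of Rs256, Rs293 and Rs304, against 1.72, 1.50 and 1.68 with DMSO, a change of 0.31 (SE 0.0760, adjusted p = 0.0288). Tpp1 had 1.87, 1.88 and 2.07, against 1.65, 1.59 and 1.74, a change of 0.28 (SE 0.0583, adjusted p = 0.012). In both genes every treated array lay above every DMSO array. In all 8 of the 36 genes lay wholly above DMSO and 3 wholly below, against 11.8% and 8.40% of all genes.

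Cd68 differed between codes with triadimefon. Its 100 uM arrays had 0.97, 0.06 and 0.66 in Rs256, Rs293 and Rs304, against 0.34, -0.01 and 0.18 with DMSO, so it was much higher in Rs256 and Rs304 and nearly level in Rs293. The change was 0.39 (95% interval -0.01 to 0.80, adjusted p = 0.424, and 0.00341 with the block). With the block 12 genes were called, all higher, in a fit that called 11.8% of all genes. The median change was 0.05. Neither call held on the values as deposited or with only the groups compared in the fit. No gene was called without the arrays of any 1 code, without the DMSO array of Rs293 or without the triadimefon array of Rs304. There was 1 without the DMSO array of Rs304 or the triadimefon array of Rs256.

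The dose slopes of the other triazoles were called for none of the 36 genes. For myclobutanil 0.248% of all genes were called by limma and 7 of the 36 had an unadjusted p under 0.05, against 9.34% of all genes; with the block 10 passed, 9 rising and Glb1 falling, against 6.64% of all genes. Without the myclobutanil 30 uM array of Rs256 there was 1. For triadimefon 0.0763% of all genes were called and 4 of the 36 had an unadjusted p under 0.05, against 6.91% of all genes; with the block Cd68 (0.34) and Tpp1 (0.22) passed, against 2.95% of all genes. At 10 uM neither compound had a gene of the list called, nor any gene of the table (0%). At 30 uM none of the list was called, against 0.00953% of all genes for myclobutanil and 0.0286% for triadimefon. Unadjusted p-values under 0.05 were found for 2 of the 36 at 30 uM myclobutanil, against 1.14% of all genes, and for 6 at 30 uM triadimefon, against 4.86%. At 10 uM none of the 36 had one, against 0.2% and 1.24% of all genes.

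Propiconazole was set against myclobutanil and triadimefon at matched dose, as were triadimefon and myclobutanil, giving 9 pairs, none of which uses a DMSO array. Without the block no gene of the list was called in any pair. At 100 uM limma called 0.763% of all genes for propiconazole minus myclobutanil, and 0.486% for propiconazole minus triadimefon. An unadjusted p under 0.05 was found for 7 of the 36 in the first of these pairs, against 9.42% of all genes, and for 5 in the second, against 7.30%. For triadimefon minus myclobutanil at 100 uM, and for all 6 pairs at 10 and 30 uM, it called 0% of genes. In those 7 pairs an unadjusted p under 0.05 was found for 2 of the 36 in propiconazole minus myclobutanil at 30 uM, against 2.13% of all genes, and for 1 in triadimefon minus myclobutanil at 30 uM, against 0.944%. The other 5 pairs had none among the 36, against 0.0477% to 1.92% of all genes.

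Cd68 had the widest gap between the triazoles. With propiconazole at 100 uM its level exceeded that with myclobutanil by 0.65 (95% interval 0.24 to 1.05, adjusted p = 0.157) and that with triadimefon by 0.41 (95% interval 0.0009 to 0.82, adjusted p = 0.682). With the replicate block the adjusted p was 5.75e-05 and 0.00573. Triadimefon exceeded myclobutanil by 0.24 (95% interval -0.17 to 0.65, adjusted p = 0.653 with the block). In each code the propiconazole array was the highest of the 3.

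With the block, 9 genes were higher with propiconazole than with myclobutanil at 100 uM, against 7.08% of all genes called. They were Cd68, Lgmn (0.33), Cd63 (0.31), Neu1 (0.29), Grn (0.28), Npc2 (0.23), Ctsb (0.21), Hexa (0.16) and Ctsz (0.15). Against triadimefon 5 were higher, with 4.62% of all genes called: Cd68, Neu1 (0.30), Grn (0.24), Ctsb (0.22) and Ctsl (0.17). Mcoln1, Ctsd and Glb1 were near 0 between propiconazole and myclobutanil; the interval for Mcoln1 was -0.13 to 0.15 around 0.01, and that for Ctsd -0.18 to 0.18 around -0.0040. These intervals hold differences of either sign. Without the Rs256 arrays 2 genes were called against myclobutanil and 1 against triadimefon in the fit without the block.

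**Figure D4:**
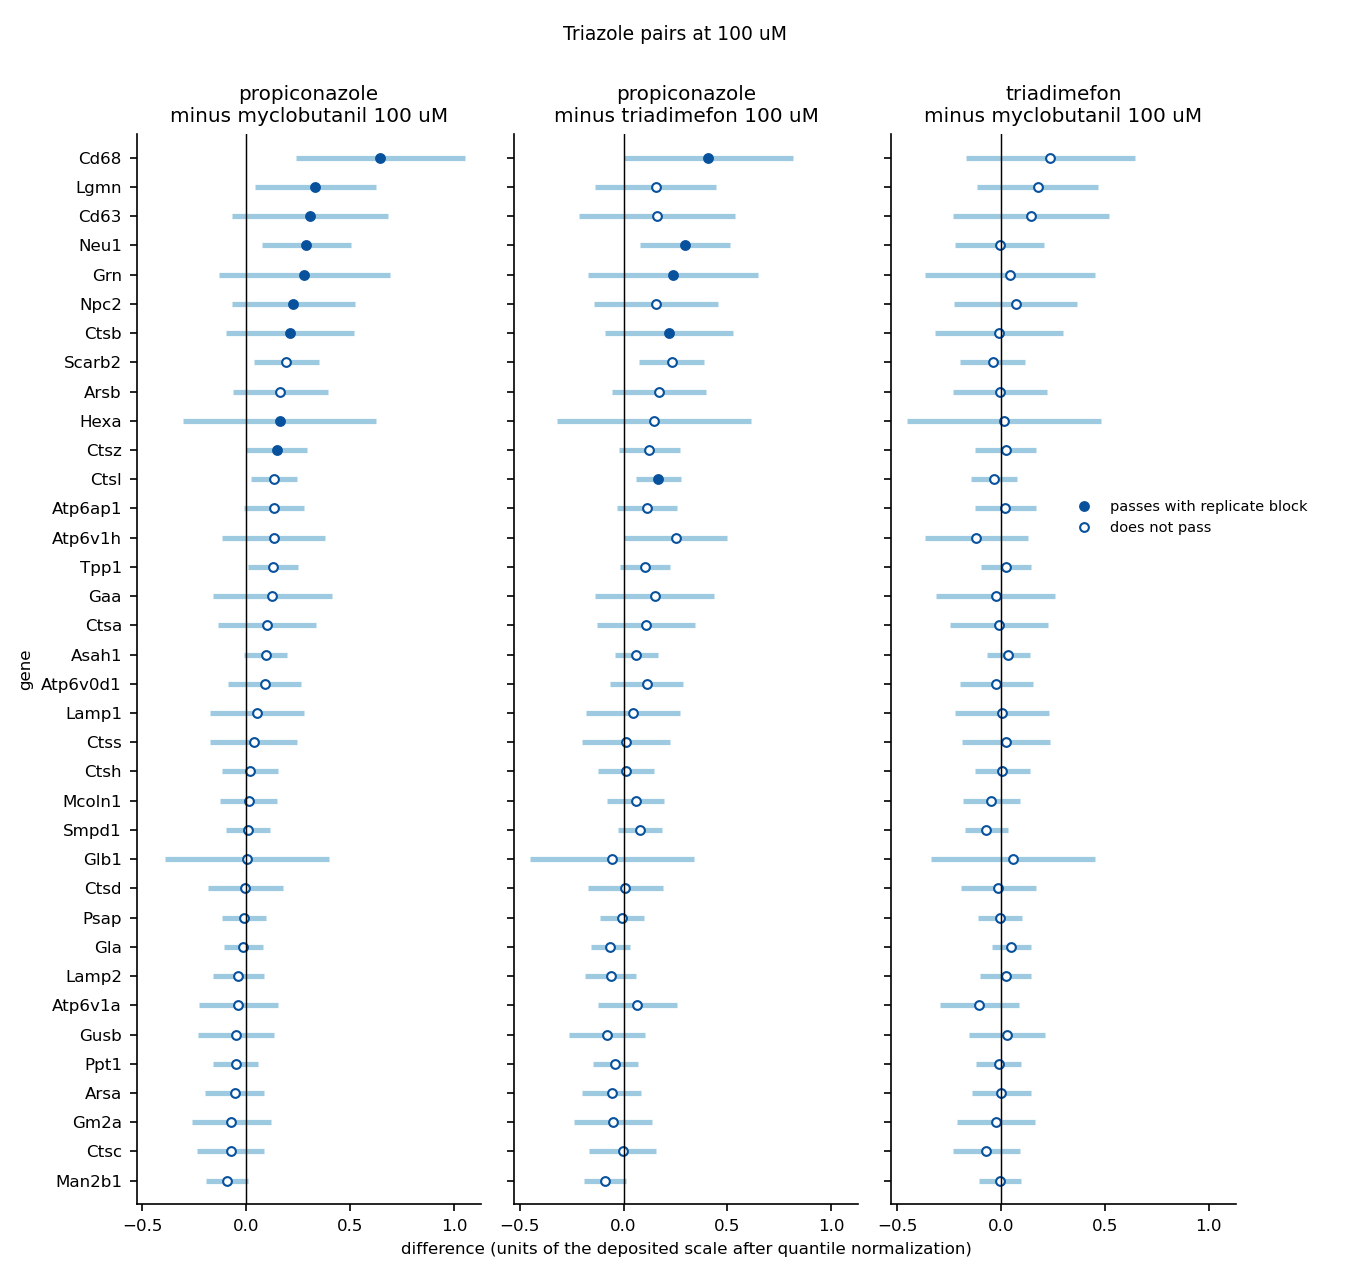
Differences between triazoles at 100 uM for the 36 genes, in units of the deposited scale after quantile normalization, with 95% intervals of the fit without the block; filled points passed the test with the replicate block. Cd68 has the largest differences of propiconazole from the other triazoles, 0.65 and 0.41, and no point is filled for triadimefon minus myclobutanil.

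No gene of the list was called with phenobarbital or PCN by limma, with 0.00953% of all genes called in each. With phenobarbital the changes ran from -0.11 for Man2b1 to 0.15 for Gaa, and 2 of the 36 had an unadjusted p under 0.05, against 0.906% of all genes. Cd68 changed by -0.03 (95% interval -0.43 to 0.38). With PCN the changes ran from -0.15 to 0.31, and 1 of the 36 had an unadjusted p under 0.05, against 1.77% of all genes. The largest was that of Gaa, 0.31 (95% interval -0.01 to 0.63), and within codes Gaa differed by 0.14 in Rs293 and 0.32 in Rs304. Because PCN had no Rs256 array, its comparison mixes code with treatment: 23 of 36 changes were above 0 without the block and 13 with it.

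The codes themselves separated the levels. Averaged over the 11 groups that held all codes, 27 of the 36 genes were lowest in Rs256, 5 in Rs293 and 4 in Rs304. The median range between code means was 0.17 for the 36 genes, against 0.10 for all genes. Cd68 went the other way from most, with means of 0.55 in Rs256, 0.09 in Rs293 and 0.32 in Rs304. Hexa, a subunit of beta-hexosaminidase, had the widest range, with 1.44 in Rs256, 1.89 in Rs293 and 1.98 in Rs304. Scarb2 and Man2b1 hardly moved with the code, by 0.04 and 0.02.

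After group and code means were removed, the mean Pearson r between the 36 genes was 0.14 over the 35 arrays, against 0.01 for all genes. Cd68 was most like Cd63 (r = 0.71), then Ctsa and Asah1 (r = 0.53 each). With only group means removed these turned to -0.64, -0.30 and -0.16, so the sign of each depends on the removal of code means; the mean r between the 36 genes was then 0.24, against 0.0041 for all genes. These values describe arrays that share groups, codes and normalization, and they carry no test.

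Other genes of the lysosome were read in the same way, on lists of named genes, for propiconazole at 100 uM, where 6.38% of all genes rose and 5.59% fell. Of 13 other V-ATPase subunits 6 rose and none fell, with a median change of 0.29, against 0.01 over all genes. Atp6v0b, of the membrane ring, rose by 0.52 (SE 0.0867, adjusted p = 0.000209), Atp6v1b2 by 0.40, Atp6v0a1 by 0.30 and Atp6v1c1 by 0.29. Of 27 other hydrolases 4 rose and 1 fell: Manba, the beta-mannosidase, by 0.63 (SE 0.106, adjusted p = 0.000223), Gnpda1, a cytosolic glucosamine-6-phosphate deaminase, by 0.39, Naglu, which degrades heparan sulfate, by 0.33, and Scpep1, a serine carboxypeptidase, by 0.32. Hyal2, a hyaluronidase, fell by 0.14. The median change on this list was 0.03. Without Gnpda1, which is not a lysosomal enzyme, 3 of 26 rose and 1 fell, a split made after its value was seen.

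Of 24 other lysosomal membrane proteins 4 rose and none fell. Slc17a5, the sialic acid exporter, rose by 0.32 (SE 0.0649, adjusted p = 0.00126), Spns1 by 0.27, Tmem192 by 0.23 and Cd164 by 0.17. Of 23 genes that sort proteins to the lysosome 4 rose: M6pr, the cation-dependent mannose-6-phosphate receptor, by 0.28, Gnptg, a subunit of the enzyme that makes the mannose-6-phosphate tag, by 0.27, Gga1 by 0.17 and Vps11 by 0.17. The largest change on this list was below 0: Rab7a, a GTPase of late endosomes that was named after its value was seen, changed by -0.69 (SE 0.237, adjusted p = 0.0571, and 7.84e-08 with the block). Medians were 0.12 and 0.09.

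Of 21 regulators that sit on or act toward the lysosome 4 rose. Rragd, a Rag GTPase that recruits mTORC1, rose by 0.70 (SE 0.120, adjusted p = 0.000266), Lamtor3 by 0.39, Flcn, which acts on the Rag GTPases, by 0.33 and Tsc1 by 0.15. The largest change on the regulator list, 0.91, was that of Gpnmb, which was not called and was named after its value was seen. Gpnmb also had the largest propiconazole slope on this list, 0.94 (SE 0.444). For that slope the adjusted p by limma was 0.221, and 1.04e-07 with the block. Of 25 autophagy genes 4 rose: Bnip3 by 0.40, Wipi2 by 0.30, the cargo receptor Sqstm1 by 0.18 and Gabarap by 0.15. Medians of these lists were 0.07 and 0.03. Of 4 cathepsin inhibitors tested Serpinb1a fell by 0.31 (SE 0.0684, adjusted p = 0.00278). The fit with the block called 15.7% of all genes as higher and 13.7% as lower. It called 10 of 13 pump subunits, 10 of 24 membrane proteins and 6 of 21 regulators as higher and none of these as lower. Of hydrolases 9 were higher and 1 lower of 27 (8 and 1 of 26 without Gnpda1), of sorting genes 9 and 2 of 23, and of autophagy genes 6 and 4 of 25.

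With the other triazoles fewer of these genes were called, as of all genes (0.639% higher and 0.572% lower with myclobutanil, 0.867% and 0.963% with triadimefon). With myclobutanil at 100 uM Scpep1 (0.30), Slc17a5 (0.26) and Vps11 (0.14) rose. With triadimefon at 100 uM Manba (0.48), Scpep1 (0.27), Gnpda1 (0.23), Slc17a5 (0.25), M6pr (0.21) and Vps11 (0.13) rose, and Serpinb1a fell by 0.28. No pump subunit, regulator or autophagy gene passed with either. The fit with the block called 5.03% of all genes as higher and 4.86% as lower with myclobutanil. It called as higher 4 of 27 hydrolases, 2 of 24 membrane proteins, 4 of 13 pump subunits, 4 of 21 regulators, 3 of 25 autophagy genes and 4 of 23 sorting genes, and 1 sorting gene as lower. For triadimefon it called 6.17% of all genes as higher and 5.66% as lower. There 6 of 27 hydrolases, 4 of 24 membrane proteins, 4 of 13 pump subunits, 3 of 21 regulators, 3 of 25 autophagy genes and 3 of 23 sorting genes were higher, and 1 sorting gene was lower.

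Cd68 marks macrophages in tissue, so macrophage markers were read on the same arrays. Of 20 listed markers 16 had a probe set, and 7 passed the filter: Clec4f, Csf1r, Cd14, Lyz2, C1qb, Aif1 and Mrc1. The other 9, Cd163, Adgre1, C1qa, C1qc, Tyrobp, Fcer1g, Cybb, Itgam and Cd5l, lay above the array median on fewer than 2 of 35 arrays. None of the 7 was called with any triazole at 100 uM. With propiconazole Clec4f, the Kupffer cell lectin, changed by -0.01 and Csf1r, the receptor for colony-stimulating factor, by -0.0042. Cd68 changed by 0.80. Cd14 and Mrc1, given below, moved further than Clec4f and Csf1r, in opposite directions. The filter asks only for 2 of 35 arrays above the median, so a tested marker can still lie low.

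The levels of the 16 markers, summed on the deposited scale, ran from -0.10 to 1.48 on the propiconazole 100 uM arrays. They ran from -0.36 to 2.04 on the DMSO arrays, and the groups overlapped. These sums include the markers that failed the filter and are not paired by code, so they say little about macrophage content. Cd14, a receptor for lipopolysaccharide, changed by 0.39 (SE 0.390, adjusted p = 0.615) and Mrc1 by -0.17 (SE 0.0803, adjusted p = 0.194). With the replicate block Cd14 passed as higher and Mrc1 as lower (adjusted p = 0.0017 and 0.00138). In RNA of whole cultures a change in the number of macrophages and a change in RNA per cell cannot be told apart.

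**Figure D5:**
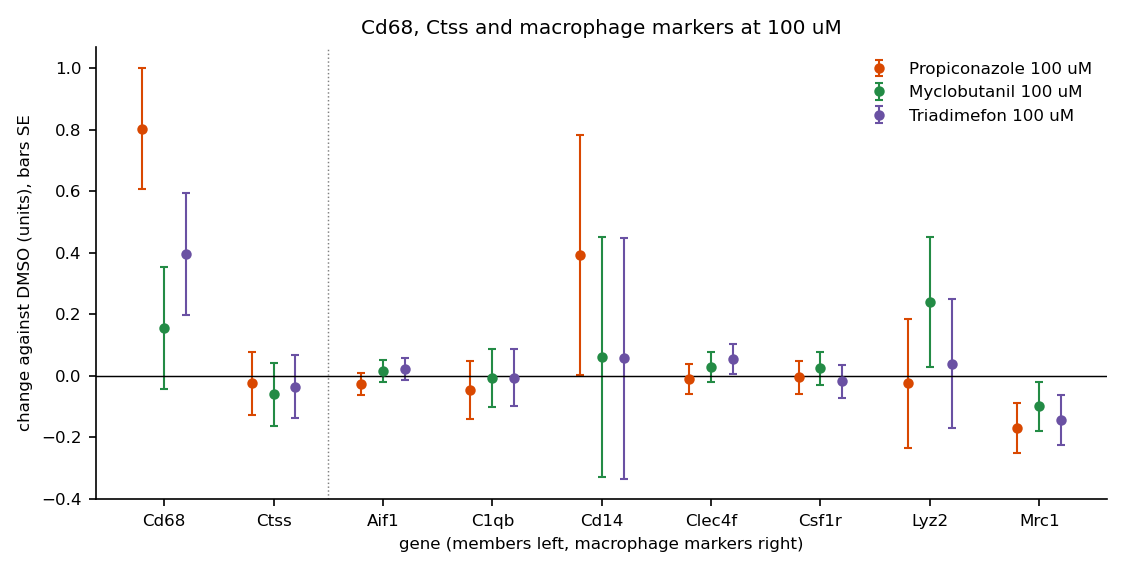
Change against DMSO at 100 uM of each triazole for the list members Cd68 and Ctss (left of the dotted line) and the 7 tested macrophage markers (right), in units of the deposited scale after quantile normalization; points are fitted changes and bars their SE. Cd68 with propiconazole stands at 0.80. Of the 7 markers Clec4f and Csf1r lie near 0 with all 3 triazoles, while with propiconazole Cd14 lies above 0 and Mrc1 below it.

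Markers of other cell types were not called at 100 uM either: 1 tested leukocyte marker, 3 of endothelium, 10 of stellate cells and 7 of cholangiocytes. Under the replicate block 2 of the 10 stellate cell markers rose and 2 fell with propiconazole at 100 uM, against 15.7% and 13.7% of all genes, and no other marker of these 4 cell types passed with any triazole at that dose. All 14 hepatocyte markers with a probe set passed the filter. With propiconazole at 100 uM 2 of them fell, against 5.59% of all genes: Ahsg, the secreted glycoprotein fetuin, by 0.34 (SE 0.0560) and Cyp2c11, a male-specific cytochrome, by 0.54 (SE 0.115). With triadimefon Ahsg fell by 0.25. The propiconazole slopes of Ahsg and Cyp2c11 fell as well, also with the block. In that block fit, which called 24.8% of all slopes, Ttr also fell, by 0.17 per unit of log10 dose (adjusted p = 0.0484 by limma). Apoa1 rose by 0.14 (adjusted p = 0.00517), and no other hepatocyte marker passed. Summed over the 14, hepatocyte levels ran from 38.04 to 39.38 with propiconazole at 100 uM, against 39.37 to 41.09 with DMSO. The difference between 3′ and 5′ actin probe sets was 0.12 lower with propiconazole at 100 uM than with DMSO (exact permutation p = 0.1, two-sided, the smallest that 3 against 3 arrays allow). The part of these in the changes of the lysosomal genes was not tested.

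Of the 10 genes called with propiconazole at 100 uM, Mcoln1, Ctsd and Gaa hold CACGTG in the promoter window, and Cd68, Scarb2, Tpp1, Neu1, Ctsl, Lgmn and Man2b1 have windows without it. Among the genes not called, Lamp1 has 5 copies and changed by 0.18, Atp6v0d1 has 1 and changed by 0.20, Cd63 has 1 and changed by 0.33, and Glb1 has 1 and changed by -0.11. Without the block the motif stood on both sides of the threshold. With the replicate block Lamp1, Atp6v0d1 and Cd63 passed as higher and Glb1 as lower. Among genes with windows without the motif, Ctsa, Ctsz, Npc2, Grn and Atp6v1h then passed as higher and Ctsc as lower. That fit called 15.7% of all genes as higher and 13.7% as lower. Absence of the motif from a window says only that the letters are not there.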

How the data were processed

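Total RNA of 35 hepatocyte cultures was hybridized to Affymetrix rat arrays. Values are a score on a log-like scale in the table the authors deposited; its base, background correction, summary and normalization are not given in the sources used here. Array medians lay between -0.03 and 0.02. Probe sets were named from the platform annotation: 20826 of 31099 named 1 gene, 436 several, 9780 none and 57 were controls. Arrays were quantile normalized, and a gene was read by its brightest probe set and tested if above the array median on at least 2 of 35 arrays.

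limma 3.58.1 in R 4.3.3 (lmFit, eBayes) fitted 12 group means without covariates; 11 comparisons with DMSO share its 3 arrays, 3 dose slopes and 9 triazole pairs do not use them. Calls are at Benjamini-Hochberg adjusted p below 0.05 within a comparison, two-sided, with no minimum change. P-values of the main fit rest on the spread between arrays of a group, pooled over the 12 groups. Those of the block fit rest on the spread left after code means are removed as well. Arrays of the same Rs code deviated together (r 0.277 to 0.952 over same-code pairs of the groups compared), so the codes pair the arrays, and the fit with the Rs code as a replicate block stands beside the main one. The genes and lists were chosen with earlier results of these data known. Cd68 and genes called in any comparison are given by array; of other lists, up to 4 called genes with the largest change at 100 uM are named.

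The fits were tested on simulated data with known changes. Motifs were searched on both strands. The number of arrays limits the precision.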

Additional observations from a re-analysis of the deposited data

How the results depend on the processing

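The number of the 36 genes called moved with the processing, while 20 of the 21 called changes kept their sign in all alternatives run; the exception was the propiconazole slope of Ctsl. With the replicate block on the Rs code the counts were 24 for propiconazole at 100 uM, 2 at 30 uM, 10 for myclobutanil and 12 for triadimefon at 100 uM; 23, 10 and 2 for the slopes of propiconazole, myclobutanil and triadimefon; and 9 and 5 for propiconazole against myclobutanil and triadimefon. All 21 changes called without the block were called with it. For the other alternatives below the share of all genes called is not given, so their counts are not set against the whole table. On the values as deposited, after median centring and after centring with scaling by the median absolute deviation, propiconazole at 100 uM had 2, 3 and 2 calls and its slope 2, 2 and 2, while myclobutanil and triadimefon at 100 uM had 0 in each. With only the groups compared in the fit the counts were 6, 0 and 0 at 100 uM of propiconazole, myclobutanil and triadimefon, and 3 for the propiconazole slope; that fit holds fewer arrays. Averaging probe sets gave 1 call for the myclobutanil slope, and taking each probe set as a feature gave 1 for propiconazole against myclobutanil at 100 uM. Leaving out single arrays or codes gave 3 to 15 calls for propiconazole at 100 uM, 0 to 3 for myclobutanil, 0 to 2 for triadimefon, 2 to 14 and 0 to 1 for the slopes of propiconazole and myclobutanil, and 0 to 2 and 0 to 1 for propiconazole against myclobutanil and triadimefon at 100 uM.

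The median change of the 36 genes at 100 uM ran from 0.11 to 0.26 for propiconazole, from 0.0238 to 0.107 for myclobutanil and from 0.0235 to 0.106 for triadimefon with arrays left out. For triadimefon it was 0.0982 as deposited and 0.0919 after median centring. Scaling by the median absolute deviation changes the unit and gave 0.45, 0.28 and 0.32 for propiconazole, myclobutanil and triadimefon. The propiconazole slope of Ctsl was -0.0569 as deposited, -0.0498 after centring and -0.0106 after scaling; the cause was not tested. Neu1 at 100 uM propiconazole was called in every alternative run.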
